A study of Homo sapiens with 8 samples.

Results

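Human genes that span at least 400 kb were followed through 8 factory RNA-seq libraries of IMR90, a primary human lung fibroblast strain from fetal tissue. A gene was taken as long where all its exons lay on 1 chromosome and the distance from its lowest exon start to its highest exon end was at least 400000 bases. Genes on X or Y were left out. So were genes with names that start with MIR, SNOR, LINC, LOC, KIF, COL, LAM or ABC or end in -AS1 or HG. Non-coding genes with other names, such as CASC15, were kept. The rule gave 556 of the 28265 genes of the count tables. Of 739 genes that met the span limit, 69 lay on X or Y and 114 were left out by name.

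The study treated IMR90 with inflachromene (ICM), a small molecule that binds HMGB1 and HMGB2, to induce a senescence-like state. Each of 4 conditions had 2 libraries of the same cell line, and the labels name no genetic change. These were cells labelled young (control), cells after 3 days of ICM, cells after 6 days of ICM, and cells labelled MetaICM, a treatment that the sources used here do not explain. The labels do not give the dose of ICM, whether the control received solvent, nor whether replicates came from separate cultures, so p-values measure only the spread between these libraries.

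Long genes consist almost entirely of intron, so RNA polymerase II needs a long time to travel from their start to their end, and much of their nascent RNA is intronic. Many encode neuronal adhesion molecules, ion channels and synaptic scaffolds, and several coincide with common fragile sites, regions that break when replication is perturbed. Others, such as MACF1 and DST, encode giant cytoskeletal linkers.

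Of the 556 genes, 130 were sets of annotated copies that the tables merged under 1 symbol, 91 of them with exons on both strands, and 426 were genes at 1 locus. The 426 spanned between 400 and 2299 kb, with a median of 565 kb, and their exons covered a median of 1.21% of the span. Their merged exons had a median length of 7729 bases against 2450 bases over all genes, and a median of 44.6% G and C against 48.6%. All counts used here were counts of read pairs on exons, so read pairs lying wholly within introns of these genes did not enter their values.

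To show what lies before the start of genes that responded most, the 250 bases before the start are given for 2 of the 3 named long genes with the largest rise after 6 days (MGAT4C and MYO16) and 2 of the 3 with the largest fall (KCNQ5 and NFIB). Sequences run 5′ to 3′ on the strand of the gene, were taken from the RefSeq promoter table (GRCh38.p14) and were placed on GRCh37 by an exact match. They lie at chr12:87232778-87233027 (minus strand), chr13:109281709-109281958 (plus strand), chr6:73331542-73331791 (plus strand) and chr9:14532076-14532325 (minus strand). Capitals mark motif matches on either strand. The letters searched were GGGCGG for the GC box and, for the box of the same name, CCAAT. The TATA box was searched as TATAAA, and the site of the factor AP-1 was searched as TGANTCA. The cAMP response element was searched as TGACGTCA, and the site of TEAD factors, effectors of the Hippo pathway, was searched as GGAATG. These motifs do not hold one another.
MGAT4C: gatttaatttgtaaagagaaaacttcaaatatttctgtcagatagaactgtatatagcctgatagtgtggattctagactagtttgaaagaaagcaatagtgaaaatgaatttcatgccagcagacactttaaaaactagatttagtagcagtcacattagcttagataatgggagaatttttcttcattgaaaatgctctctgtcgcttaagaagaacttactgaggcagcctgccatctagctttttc
MYO16: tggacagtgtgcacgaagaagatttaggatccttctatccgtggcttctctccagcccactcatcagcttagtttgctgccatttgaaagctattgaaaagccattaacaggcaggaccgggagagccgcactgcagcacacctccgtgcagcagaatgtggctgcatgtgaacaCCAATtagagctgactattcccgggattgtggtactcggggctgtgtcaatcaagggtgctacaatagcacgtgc
KCNQ5: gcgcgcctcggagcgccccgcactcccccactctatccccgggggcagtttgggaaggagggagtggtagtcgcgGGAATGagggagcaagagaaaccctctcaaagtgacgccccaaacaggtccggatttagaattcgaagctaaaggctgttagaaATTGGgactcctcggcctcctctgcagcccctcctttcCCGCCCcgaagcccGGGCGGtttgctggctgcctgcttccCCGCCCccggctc
NFIB: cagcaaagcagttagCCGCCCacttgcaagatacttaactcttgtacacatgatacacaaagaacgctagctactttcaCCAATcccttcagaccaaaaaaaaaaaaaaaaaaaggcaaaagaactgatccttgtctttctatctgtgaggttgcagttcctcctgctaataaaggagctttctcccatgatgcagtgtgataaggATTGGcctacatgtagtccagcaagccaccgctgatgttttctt

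The KCNQ5 stretch held 18 CG pairs, 3 GC box matches, 1 CCAAT match and 1 TEAD match, whereas the MGAT4C stretch held 1 CG pair and none of the 6 motifs. The MYO16 stretch lies before a start that is 33706 bases inside the gene as the tables annotate it. Over the whole 300-base windows, from 250 bases before to 50 bases after each start, 761 promoters of 342 of the 426 genes were in the table. Their share with a GC box was 43.1% against 45% of all 35116 promoters, with a CCAAT box 32.7% against 34.6%, and with an AP-1 match 7.75% against 7.71%. The 48 promoters of genes called higher after 6 days had a median of 7.5 CG pairs and the 165 promoters of genes called lower had a median of 15, beside 14 over all promoters. A TATA box match was present in 16.7% of the former and 6.06% of the latter, against 11.5% of all. AP-1 matches were in 12.5% and 4.85%, TEAD matches in 16.7% and 12.1% (14% of all), and cAMP response element matches in 0% and 0.606% (1.85% of all). A match describes letters in these windows, and promoters of 1 gene share sequence.

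Libraries held between 12095123 and 23166405 counts. CDK1, a cyclin-dependent kinase of dividing cells, was at 45.6 to 50.2 CPM (counts scaled to library size) in control, 4.52 to 5.15 after 3 days, 2.79 to 3.83 after 6 days and 32.5 to 34.2 in MetaICM. All 11 fibroblast markers were at 1 CPM or more in every library, with summed levels of 23258 to 23428 CPM in control, 13053 to 14437 after 3 days, 11053 to 11421 after 6 days and 20397 to 21286 in MetaICM. COL1A1 fell most, from 8080 and 8805 CPM in control to 1889 and 1874 after 6 days. COL1A2 went from 7288 and 6526 to 3781 and 3564 CPM. All fibroblast markers except COL3A1 lay below both controls after 6 days. COL3A1 was at 3196 and 2993 CPM in control and 3011 and 2867 after 6 days. FAP was highest after 3 days, and VIM and THY1 were highest in MetaICM. All 6 epithelial markers were under 1 CPM in every library and summed to between 0.23 and 1.49 CPM. Of 8 neuronal markers, 5 stayed under 1 CPM throughout, among them STMN2, NEFL and ELAVL4. TUBB3 made up most of the neuronal sum of 81.6 to 193 CPM. SNAP25 was at 4.76 and 6.37 CPM in control and 0.782 and 1.01 after 3 days. It was at 1.29 and 0.956 CPM after 6 days, and 5.30 and 6.51 in MetaICM. The sums of 4 endothelial and 4 leukocyte markers reached at most 6.66 and 2.36 CPM. Their part in the results was not tested, and in bulk libraries fewer cells of a kind and less RNA per cell cannot be told apart.

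Genes at 1 locus held between 2.52% and 3.4% of all counts in a library and the copies 0.0116% to 0.017%. The share on genes at 1 locus was 2.78% and 2.82% in control, 2.79% and 3.31% after 3 days, 3.39% and 3.4% after 6 days, and 2.72% and 2.52% in MetaICM. DST alone, which encodes the cytoskeletal linker dystonin, took 0.513% and 0.497% of all counts in control, and 1.02% and 1.04% after 6 days. Without DST the share was 2.27% and 2.33% in control, 2.11% and 2.43% after 3 days, 2.37% and 2.36% after 6 days, and 2.20% and 2.05% in MetaICM. Only the libraries of 3 days then overlapped the control.

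Of the 556 genes, 333 passed the filter on low counts in at least 1 comparison and 223 passed in none. Among the 426 at 1 locus, 308 passed in at least 1 comparison and 118 in none, and 3 had no count in any library. A median gene at 1 locus was at 0.964 CPM per kb of exon. Among genes tested after 6 days, the median was 2.72 CPM per kb for long genes and 5.02 for all genes.

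The highest levels per kb of exon, averaged over the 8 libraries, belonged to MACF1 (254 CPM per kb) and DST (224), both spectraplakins that join actin to microtubules, and to SND1 (206), a nuclease-domain protein that binds RNA. LTBP1 (131), which holds latent TGF-beta in the matrix, PLCB4 (87.8), a phospholipase C, and the actin-binding PALLD (86.5) followed. The other four of the 10 highest were DLC1 (60.2), the receptor phosphatase PTPRM (49.3), utrophin (UTRN, 47.7) and the nuclear envelope protein nesprin-1 (SYNE1, 45.4). PALLD and MACF1 were called in no comparison.

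DST was at 5364 and 4980 CPM in control, 6677 and 8494 after 3 days, 10054 and 10423 after 6 days, and 5348 and 4721 in MetaICM. Both libraries of 6 days lay above all others, and MetaICM overlapped the control. DST was 1.97-fold higher after 6 days than in control (log2FC 0.98 ± 0.12 (SE), n = 2, adjusted p = 0.00014 by edgeR's quasi-likelihood test).

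LTBP1 was at 1098 and 959 CPM in control, 684 and 684 after 3 days, 593 and 583 after 6 days, and 1248 and 1193 in MetaICM. It was lowest after 6 days, when it was 1.75-fold below control (log2FC -0.81 ± 0.12, edgeR adjusted p = 0.000346). SND1 rose 1.65-fold after 6 days (0.72 ± 0.13, edgeR adjusted p = 0.00141), and SYNE1 rose 1.71-fold after 3 days (0.77 ± 0.14, edgeR adjusted p = 0.00169).

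The first question was which long genes differed between ICM-treated and control cells. After 3 days, 314 long genes were tested; 29 were higher and 73 lower at an adjusted p under 0.05 and an absolute log2FC over 0.6. That is 9.24% and 23.2% of those tested, where 8.85% of all 15692 genes tested were higher and 13.2% lower. The median log2FC was -0.18 over the long genes and 0.01 over all genes. The medians from the 4 pairs of single libraries had an SD of 0.12 and ran from -0.32 to -0.05. Here and below, pair values are differences in log2 of CPM plus 0.5, not edgeR's log2FC. The pairs share libraries, so they are not independent and their SD is only a rough guide. Leaving out replicate 2 of 3 days gave 17 genes higher, and leaving out replicate 1 gave a median of -0.07.

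After 6 days, 35 of 320 long genes were higher and 84 lower, or 10.9% and 26.2%. Of all 15950 genes tested, 13.3% were higher and 17.2% lower. The median log2FC was -0.22 over the long genes, with an SD of 0.05 over the 4 single-library pairs, and 0.00 over all genes.

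In MetaICM, 12 of 314 long genes were higher than in control and 81 lower, or 3.82% and 25.8%. Over all 15904 genes tested, 7.41% were higher and 8.99% lower. The median log2FC of the long genes was -0.35, with an SD of 0.05 over the pairs, and 245 of the 314 had a log2FC below 0. Leaving out replicate 2 of MetaICM gave 46 genes lower and 7 higher, and leaving out replicate 1 gave 6 higher. The 3 comparisons share the control libraries, so their counts are not independent of one another.

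**Figure D1:**
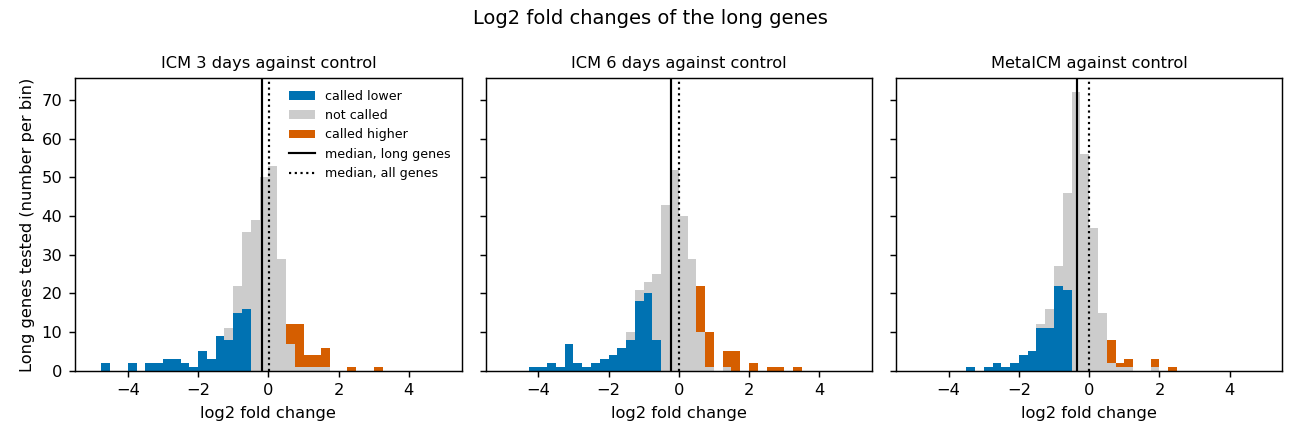
Log2 fold changes (x axis) of the long genes tested in each comparison with control, as the number of genes per bin of 0.25 (y axis). Colours give the call, and vertical lines give the medians of the long genes (solid) and of all genes tested (dotted); the solid line lies left of the dotted line in all 3 comparisons, furthest in MetaICM (-0.35).

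Of the copies, 23 were tested after 3 days and in MetaICM and 25 after 6 days. None was called higher in these comparisons, and 3, 6 and 5 were called lower, or 13%, 24% and 21.7%. Among genes at 1 locus alone, 29 of 291 were higher and 70 lower after 3 days. After 6 days 35 of 295 were higher and 78 lower, and in MetaICM 12 of 291 were higher and 76 lower. The shares lower were 24.1%, 26.4% and 26.1%, beside 13.2%, 17.2% and 8.99% over all genes. The shares higher were 9.97%, 11.9% and 4.12%, beside 8.85%, 13.3% and 7.41% over all genes.

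The share of calls differed with span below the 400 kb limit as well. In MetaICM against control, the share of genes called lower was 6.85% among genes under 10 kb, 14.6% at 100 to 200 kb, 18% at 200 to 400 kb and 25% of the 1-locus genes at 400 to 500 kb. It was 26.2% at 500 to 750 kb, 21.6% (8 of 37) at 750 to 1000 kb and 37% (10 of 27) over 1000 kb. The share thus did not rise steadily among the long genes. Some of the calls over 1000 kb rest on few counts, with as few as 19 in a control library for DAB1 and 30 for EYS. The median log2FC was 0.17 under 10 kb, -0.35 at 400 to 500 kb, -0.29 at 750 to 1000 kb and -0.50 over 1000 kb. Across all genes tested on 1 chromosome, Spearman's rank correlation of log2FC with span was -0.251, with an SD of 0.0311 over single-library pairs. These are genes in the same libraries, and span goes with exon length and base composition. Within the third of genes with the least exon sequence the correlation was -0.03, and within the middle and the upper class of exon length it was -0.214 and -0.239. Within 3 equal classes of exon G and C content it was between -0.214 and -0.152. It was -0.12 when all genes with a count were fitted.

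After 3 and 6 days of ICM the share of lower calls did not rise up to the longest class. The share called lower rose from 10% and 15.3% under 10 kb to 31.1% and 33.6% of the 1-locus genes of 500 to 750 kb. Over 1000 kb it was 15.4% (4 of 26) after 3 days and 14.8% (4 of 27) after 6 days, and 6 genes were higher at either time. Among the higher genes, CSMD3 had few counts, as given below. NKAIN2 lay near the limit after 6 days (log2FC 0.64), and LRMDA after 3 days was not called after thinning to equal depth. The rank correlation with span was -0.117 after 3 days and -0.0664 after 6 days. It was -0.0474 and -0.0167 under DESeq2, and -0.0493 and -0.0195 when all genes with a count were fitted, and within the third with the least exon sequence it was 0.0334 and 0.0896. Leaving out replicate 1 of 3 days gave a rank correlation of -0.0424 after 3 days, and leaving out control replicate 2 gave -0.0297 after 6 days. Few genes fill the longest classes, and the last 2 hold 26 to 38 tested genes each.

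**Figure D2:**
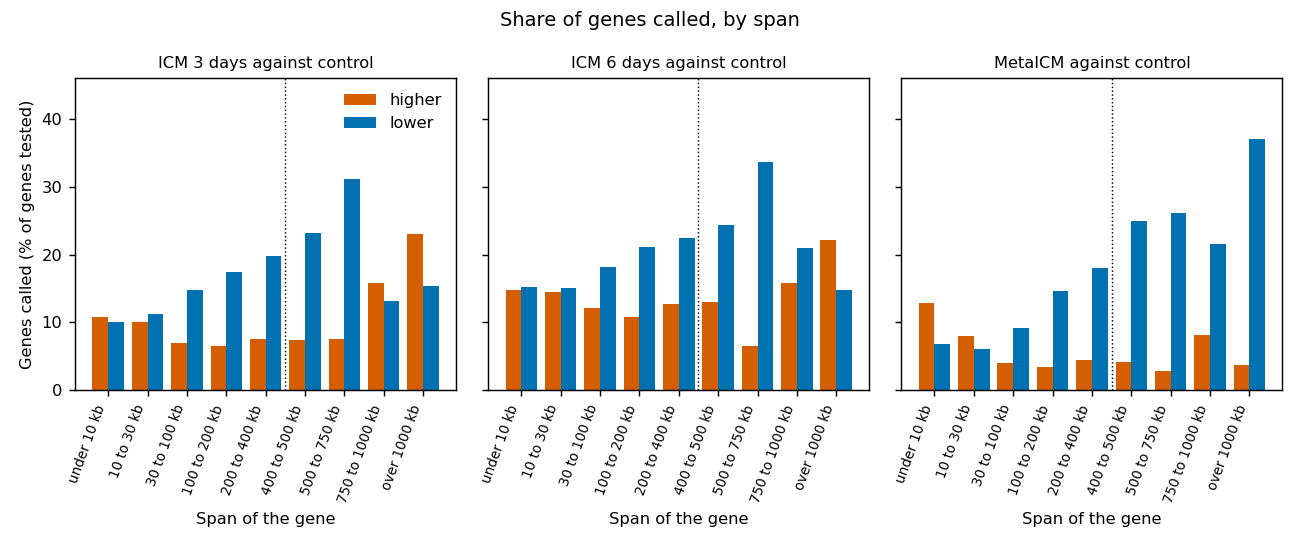
Share of genes called higher (orange) and lower (blue), in percent of genes tested (y axis), by class of span (x axis) in each comparison with control. Right of the dotted line are the long genes at 1 locus. In MetaICM 37% of those over 1000 kb were lower, while after 3 and 6 days there were 6 higher and 4 lower calls. Some of the higher calls rest on few counts (CSMD3) or lie near the limit (NKAIN2 after 6 days, log2FC 0.64).

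Among the longest genes, chosen here by span with their values known, LRP1B, a giant receptor of the LDL receptor family, spans 1900 kb. It was at 3.69 and 5.05 CPM in control, 7.26 and 8.43 after 3 days, 7.52 and 8.18 after 6 days, and 7.47 and 7.03 in MetaICM. All 6 libraries with a treatment lay above both controls. LRP1B was called higher in all 3 comparisons, by 1.80-, 1.81- and 1.68-fold (edgeR adjusted p = 0.0226, 0.0113 and 0.0302). The call in MetaICM was lost when control replicate 1 or either MetaICM replicate was left out, after thinning to equal depth and under DESeq2.

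PTPRD, the longest of the genes at 1 locus that was tested (2299 kb), encodes a receptor phosphatase of neuronal adhesion. It was at 4.93 and 7.53 CPM in control, 4.41 and 6.40 after 3 days, 6.28 and 6.00 after 6 days, and 1.93 and 1.61 in MetaICM. MetaICM lay below all other libraries, which overlapped among themselves. PTPRD was 3.49-fold lower in MetaICM than in control and 3.48-fold lower than after 6 days (edgeR adjusted p = 0.002 and 4.55e-07).

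Of the other genes at 1 locus that were tested and at least as long as FHIT (1504 kb), EYS and PDE4D, the latter a cyclic AMP phosphodiesterase, were lower in MetaICM than in control by 3.31- and 2.44-fold (edgeR adjusted p = 0.00657 and 0.000296), with log2FC values of 0.00 and -0.30 after 6 days that were not called. NRXN3, a presynaptic neurexin, was lower in all 3 comparisons with control. DLG2, CSMD1 and FHIT were called in none of these comparisons, with log2FC values between -1.07 and 0.34. Between MetaICM and 6 days, DLG2 was lower in MetaICM (log2FC -0.76, edgeR adjusted p = 0.0116), and CSMD1 and FHIT were not called. MACROD2 was tested only between MetaICM and 6 days, where it was 3.53-fold lower (edgeR adjusted p = 0.00882). The remaining genes with the largest spans that passed the filter were merged copies on chromosomes 1, 7 and 10, headed by SRGAP2D. Of these, NOTCH2NLC was lower in MetaICM and NBPF25P lower in all 3 comparisons with control, while SRGAP2D, H3P4, NBPF19, TRIM73, STAG3L1, PMS2P5 and BMS1P1 were called in none of these 3. Reads of such copies can be shared between places, so these values are uncertain.

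Among the largest falls after ICM was that of KCNQ5, second to TMEM178B after 3 days and the largest of the named genes after 6 days. KCNQ5 is a voltage-gated potassium channel subunit on chromosome 6 (73331792 to 73908576, GRCh37), and its start is printed above. It was at 6.48 and 7.78 CPM in control, 0.23 and 0.404 after 3 days, 0.322 and 0.478 after 6 days, and 2.33 and 2.04 in MetaICM. Its ICM libraries of both times overlapped each other, and MetaICM lay between them and the control. The fall was 22.9-fold after 3 days, 17.5-fold after 6 days and 3.26-fold in MetaICM (log2FC -4.52 ± 0.38, -4.13 ± 0.33 and -1.70 ± 0.23, edgeR adjusted p = 2.92e-06, 5.44e-06 and 0.001). MetaICM was 5.37-fold above 6 days (edgeR adjusted p = 1.63e-05). KCNQ5 had under 10 counts in each ICM library of either time, so folds that involve them are imprecise.

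NFIB, a transcription factor of the nuclear factor I family (chromosome 9, 14081842 to 14532075), fell in all 3 conditions. It was at 27.0 and 33.5 CPM in control, 2.25 and 2.22 after 3 days, 1.99 and 2.6 after 6 days, and 3.12 and 2.82 in MetaICM. The fall was 13.5-, 13.1- and 10.2-fold (log2FC -3.75 ± 0.21, -3.72 ± 0.21 and -3.35 ± 0.18, edgeR adjusted p = 9.92e-08, 4.5e-07 and 1.03e-05). MetaICM and 6 days differed by a log2FC of 0.37 ± 0.25, which did not pass (edgeR adjusted p = 0.216).

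RIMS2, STXBP5L and LUZP2 fell from under 10 CPM in control. RIMS2, a scaffold of the presynaptic active zone, had 13 and 11 counts in control, 2 and 0 after 3 days, 0 and 2 after 6 days, and 25 and 24 in MetaICM. The ratio of control to 6 days was 15.5 from the pooled counts, with an exact 95% binomial interval of 3.86 to 136 that covers counting error only. RIMS2 was called lower at both times (edgeR adjusted p = 0.00505 and 0.00386), though not without replicate 2 of 3 days or replicate 1 of 6 days, and it did not pass between MetaICM and control (log2FC 0.44 ± 0.40, edgeR adjusted p = 0.432). STXBP5L, a syntaxin-binding protein of the tomosyn kind, was at 4.22 and 3.97 CPM in control, 0.46 and 0.539 after 3 days, 0.322 and 0.372 after 6 days, and 2.48 and 2.34 in MetaICM. No conditions overlapped, and the fall was 8.22-fold after 3 days and 11.6-fold after 6 days (edgeR adjusted p = 5.91e-05 and 2.84e-05). STXBP5L had under 10 counts in each library of 6 days and in replicate 2 of 3 days, so both folds are imprecise. LUZP2, a leucine zipper protein, was at 6.12 and 9.77 CPM in control, 0.919 and 0.539 after 3 days, 0.752 and 0.903 after 6 days, and 7.72 and 6.08 in MetaICM. Its MetaICM libraries overlapped the control, and the fall was 10.3- and 9.44-fold after 3 and 6 days (edgeR adjusted p = 2.72e-05 and 3.31e-05). LUZP2 had under 10 counts in replicate 2 of 3 days, so the former fold is imprecise.

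DIAPH3 and CEP128 fell from higher levels. DIAPH3, a formin that nucleates actin filaments, was at 166 and 157 CPM in control, 20.6 and 24.7 after 3 days, 25 and 29.7 after 6 days, and 89.6 and 84.7 in MetaICM. The fall was 7.17-fold after 3 days, 5.91-fold after 6 days and 1.86-fold in MetaICM (edgeR adjusted p = 3.91e-08, 2.2e-07 and 0.000505). CEP128, a protein of the mother centriole, was at 35.1 and 30.9 CPM in control, 3.91 and 5.53 after 3 days, 3.54 and 3.4 after 6 days, and 18.4 and 18.8 in MetaICM. Its fall was 7.11-, 9.52- and 1.78-fold (edgeR adjusted p = 5.99e-07, 2.76e-07 and 0.00213). For both genes the order from control through MetaICM to ICM held in every library, as it did for CDK1.

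Among adhesion genes, FAT3, a giant atypical cadherin, was at 77.3 and 73.3 CPM in control, 6.02 and 9.17 after 3 days, 23.4 and 23.4 after 6 days, and 68.9 and 56.6 in MetaICM. It fell 10.1-fold after 3 days and 3.23-fold after 6 days (edgeR adjusted p = 1.03e-07 and 2.36e-06), and 6 days lay 3.13-fold above 3 days (edgeR adjusted p = 6.67e-07). NRXN3 was at 99.3 and 103 CPM in control, 16.1 and 24.6 after 3 days, 20.1 and 21.9 after 6 days, and 27.1 and 24.7 in MetaICM. All treated libraries lay far below the control, and the falls were 5.01-, 4.81- and 3.91-fold (edgeR adjusted p = 1.46e-06, 3.9e-07 and 1.24e-05).

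HIVEP3, a zinc finger transcription factor, and CASC15, a long non-coding RNA, fell 9.36- and 9.07-fold after 6 days (edgeR adjusted p = 3.89e-06 and 6.76e-07). CASC15 was at 21.3 and 21.4 CPM in control, 7.49 and 9.37 after 3 days, 2.58 and 2.13 after 6 days, and 3.91 and 3.04 in MetaICM. It was lower after 6 days than after 3 days by 3.56-fold (edgeR adjusted p = 1.01e-05).

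**Figure D3:**
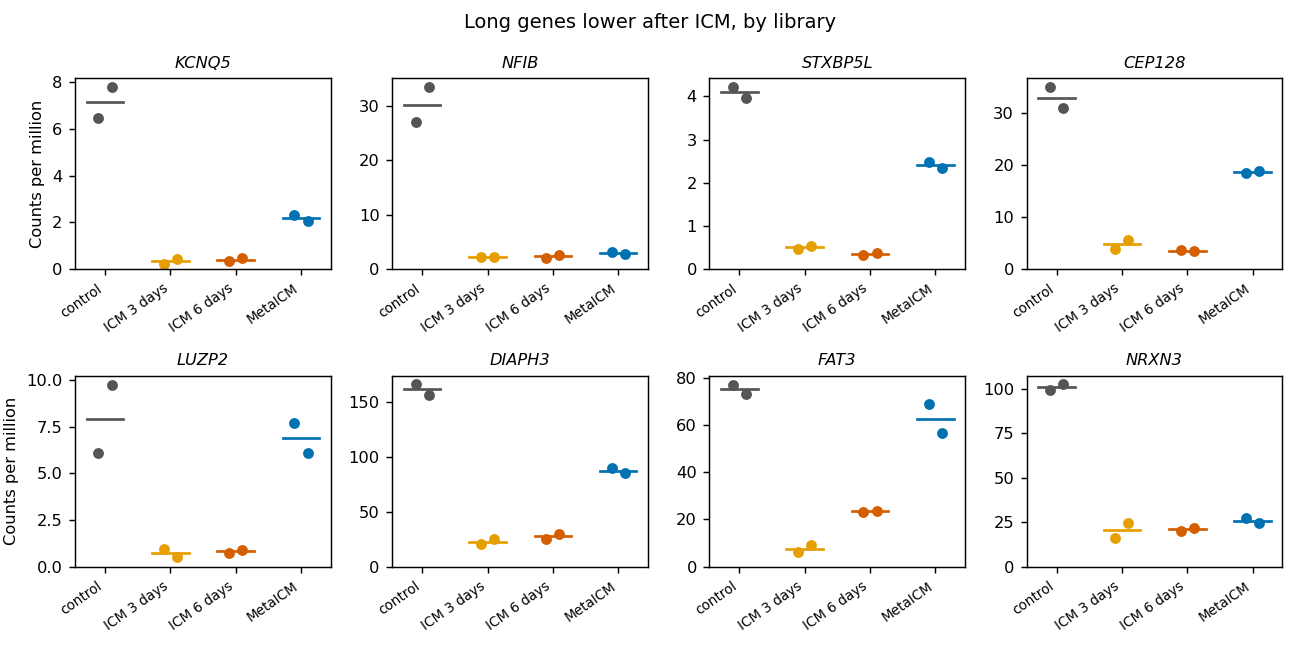
Level in CPM (y axis, from 0) of 8 long genes that fell after ICM, by condition (x axis); points are single libraries and lines are means of 2. KCNQ5, STXBP5L, CEP128 and DIAPH3 lay between ICM and control in MetaICM, LUZP2 overlapped the control there, and NFIB and NRXN3 stayed far below it.

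The strongest rises after ICM in terms of fold were in genes with few counts. CSMD3, a large membrane protein with CUB and Sushi domains on chromosome 8 (113235158 to 114449168), had 0 and 4 counts in control, 23 and 27 after 3 days, 18 and 23 after 6 days, and 12 and 13 in MetaICM. It was called higher after 3 and 6 days (log2FC 3.25 ± 0.79 and 2.90 ± 0.78, edgeR adjusted p = 0.00914 and 0.0131), but not after 6 days without control replicate 1 or replicate 2 of 6 days. MGAT4C, of an N-acetylglucosaminyltransferase family, had 2 and 0 counts in control, 3 and 4 after 3 days, 16 and 15 after 6 days, and 5 and 6 in MetaICM. The ratio of 6 days to control was 12 from the pooled counts (exact 95% interval 3.04 to 103, counting error only, edgeR adjusted p = 0.00533). MYO16, an unconventional myosin, had 2 and 3 counts in control, 9 and 7 after 3 days, 19 and 25 after 6 days, and 3 and 0 in MetaICM. Its ratio of 6 days to control was 6.79 (exact 95% interval 2.70 to 21.9, edgeR adjusted p = 0.00372). THSD7A and TAFA2 were called higher after 6 days as well (edgeR adjusted p = 0.0152 and 0.0133), with at most 28 counts in a library, and lost the call under DESeq2 and when single libraries were left out.

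Rises from higher levels were clearer against the spread of replicates. PLCB4, a phospholipase C that acts downstream of G protein-coupled receptors, was at 240 and 249 CPM in control, 649 and 779 after 3 days, 706 and 776 after 6 days, and 304 and 272 in MetaICM. It rose 2.91-fold after 3 days and 3.02-fold after 6 days (log2FC 1.54 ± 0.13 and 1.6 ± 0.11, edgeR adjusted p = 3.89e-06 and 2.33e-06), and MetaICM lay 2.57-fold below 6 days (edgeR adjusted p = 6.91e-12). PCDH9, a protocadherin, was at 95.1 and 101 CPM in control, 207 and 263 after 3 days, 294 and 304 after 6 days, and 85.4 and 78.5 in MetaICM. It rose 2.39- and 3.05-fold (edgeR adjusted p = 3.11e-05 and 1.74e-06). Both genes were higher in every ICM library than in any control or MetaICM library.

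HECW1, a ubiquitin ligase, was at 8.62 and 7.20 CPM in control, 19.8 and 22.2 after 3 days, 23.7 and 27.5 after 6 days, and 10.4 and 9.12 in MetaICM. It rose 2.63- and 3.20-fold after 3 and 6 days (edgeR adjusted p = 0.00012 and 2.75e-05). LRRC7, a postsynaptic scaffold also called densin, rose 2.99- and 3.19-fold from 1.49 and 1.57 CPM (edgeR adjusted p = 0.00177 and 0.00112).

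Some long genes had their highest values after 3 days. LRMDA was at 0.595 and 1.32 CPM in control, 1.93 and 4.11 after 3 days, 0.322 and 0.425 after 6 days, and 0.396 and 0.434 in MetaICM. The difference between 6 and 3 days was 7.73-fold (log2FC -2.95 ± 0.46, edgeR adjusted p = 0.000134). ATRNL1, an attractin-like membrane protein, was 4.72-fold lower after 6 than after 3 days (edgeR adjusted p = 0.000711). Rises of both over control after 3 days (edgeR adjusted p = 0.0211 for LRMDA and 0.00669 for ATRNL1) were not called without replicate 2 of 3 days. TRPM3, a cation channel, rose 2.67-fold after 3 days (edgeR adjusted p = 0.00981) and was at a log2FC of 0.71 ± 0.36 after 6 days, which was not called.

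Between 6 and 3 days, 13 of 315 long genes were higher and 25 lower, or 4.13% and 7.94%, where 3.53% of all 15845 genes were higher and 4.54% lower. The median log2FC was -0.03 over the long genes. It was above 0 under DESeq2 (0.04), with all genes that had a count (0.04) and without replicate 2 of 3 days (0.09). The last gave 25 genes higher, and leaving out any one of the other three libraries gave 6 to 8 higher. Besides FAT3, the largest rises were in TMEM178B, MGAT4C and MYO16. The largest falls were in LRMDA, ATRNL1, CASC15 and the calcium channel subunit CACNA2D3 (3.08-fold, edgeR adjusted p = 0.00121). MYO16 lost the call under 6 alternatives, all 4 that leave out a library among them, and MGAT4C under 3 of these 4.

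The next comparisons set MetaICM against ICM. Against 3 days, 44 of 321 long genes were higher and 66 lower in MetaICM, or 13.7% and 20.6%. Without replicate 2 of 3 days, 53 were higher and 47 lower. Of all 16209 genes, 13.1% were higher and 10.3% lower. Against 6 days, 46 of 316 long genes were higher and 59 lower, or 14.6% and 18.7%, where 15.7% of all 16036 genes were higher and 12% lower. The median log2FC was -0.17 and -0.16 over the long genes and 0.01 over all genes in both comparisons. Without replicate 2 of 3 days the former median was -0.09. The rank correlation with span was -0.0921 and -0.126. Within 3 equal classes of exon G and C content it was between -0.0428 and -0.0268 against 3 days, and between -0.0451 and -0.00962 against 6 days. Over 1000 kb, 1 gene was higher and 10 were lower in either comparison, of 28 and 27 tested.

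TMEM178B, a transmembrane protein, had the largest rise in MetaICM. It had 73 and 44 counts in control, 3 and 3 after 3 days, 34 and 21 after 6 days, and 445 and 423 in MetaICM. In CPM this was 4.34 and 3.64, 0.138 and 0.202, 1.83 and 1.12, and 22.0 and 18.4. The conditions did not overlap. MetaICM lay 5-fold above control and 13.7-fold above 6 days (log2FC 2.32 ± 0.19 and 3.77 ± 0.19, edgeR adjusted p = 5.8e-05 and 6.33e-13). Control lay above 3 days by a ratio of 24.7 from pooled counts (exact 95% interval 11 to 68.6, edgeR adjusted p = 1.31e-05).

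NRG1, a ligand of ERBB receptors on chromosome 8 (31497268 to 32631562), went the other way. It was at 220 and 208 CPM in control, 408 and 523 after 3 days, 612 and 523 after 6 days, and 90.3 and 79.7 in MetaICM. It rose 2.16- and 2.64-fold after 3 and 6 days and was 2.53-fold lower in MetaICM than in control (edgeR adjusted p = 8.56e-05, 8.16e-06 and 8.16e-05). MetaICM and 6 days differed 6.68-fold (log2FC -2.74 ± 0.09, edgeR adjusted p = 4.43e-16).

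RARB, a retinoic acid receptor, was at 5.29 and 5.96 CPM in control, 15.0 and 18.1 after 3 days, 9.77 and 10.9 after 6 days, and 2.77 and 3.04 in MetaICM. It rose 2.93- and 1.84-fold and was 1.93-fold lower in MetaICM (edgeR adjusted p = 0.000116, 0.00412 and 0.0121). GPC5, a glypican, was at 3.09 and 2.32 CPM in control, 3.54 and 3.98 after 3 days, 5.1 and 5.1 after 6 days, and 0.347 and 0.434 in MetaICM. It was 1.85-fold higher after 6 days and 6.88-fold lower in MetaICM than in control (edgeR adjusted p = 0.0147 and 0.00122). For both genes MetaICM lay below every other library.

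**Figure D4:**
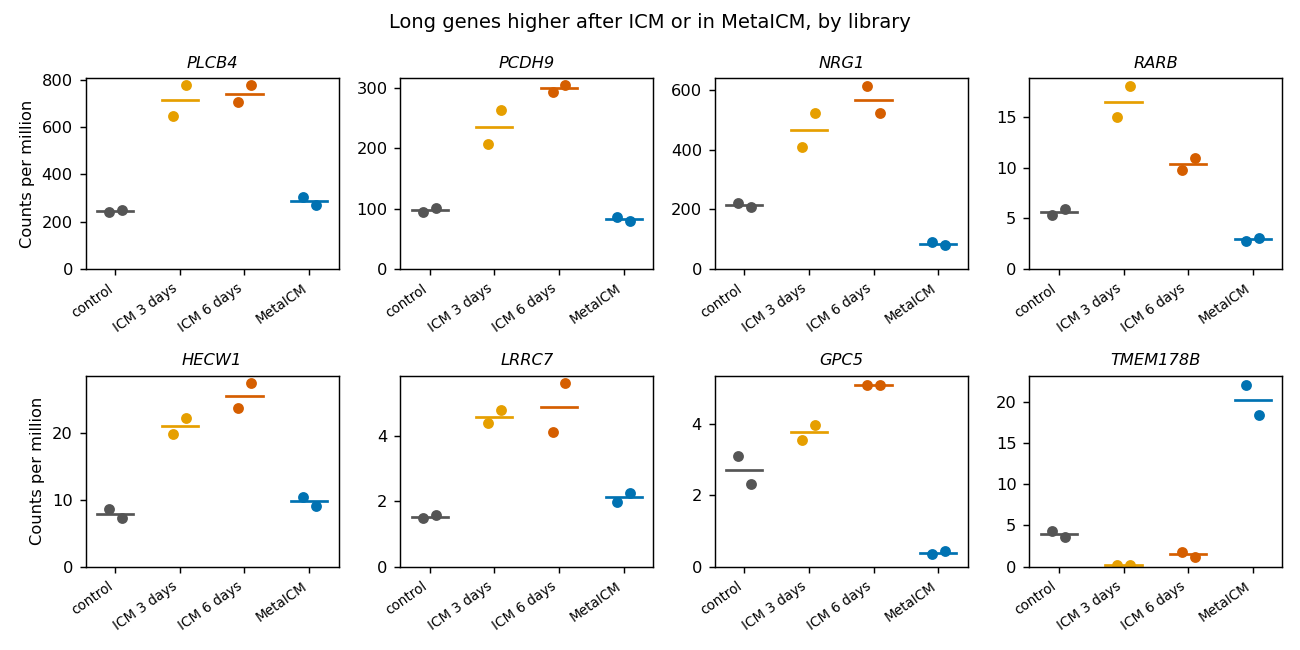
Level in CPM (y axis, from 0) of 8 long genes that rose after ICM or in MetaICM, by condition (x axis); points are single libraries and lines are means of 2. MetaICM lay near the control for PLCB4, PCDH9, HECW1 and LRRC7, below it for NRG1, RARB and GPC5, and above it for TMEM178B (18.4 and 22 CPM).

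Of the other named genes higher in MetaICM than in control, LRP1B was higher with ICM too, as given above. PALM2AKAP2, which holds an anchoring protein of protein kinase A, was at 408 and 337 CPM in control, 406 and 411 after 3 days, 572 and 525 after 6 days, and 809 and 844 in MetaICM. It rose 2.22-fold (edgeR adjusted p = 0.00039). SHANK2, a postsynaptic scaffold, rose 2.11-fold to 46.6 and 44.7 CPM (edgeR adjusted p = 0.000673). SAMD12 and NAALADL2 rose 1.71- and 1.68-fold (edgeR adjusted p = 0.00477 and 0.00395), the latter not without MetaICM replicate 1. PDE11A, a cyclic nucleotide phosphodiesterase, and FAM189A1 rose from 8 and 7 counts and from 2 and 3 counts in control (edgeR adjusted p = 0.0107 and 0.0378), and neither call held under leaving out either MetaICM library.

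The largest falls in MetaICM against control, after NFIB and GPC5, were in CASC15 (6.16-fold, edgeR adjusted p = 2.82e-05), in SPOCK1, a matrix proteoglycan (6.10-fold, edgeR adjusted p = 0.000215), in PPARGC1A, a coactivator of mitochondrial biogenesis (4.78-fold, edgeR adjusted p = 0.0092), in TMTC2, an enzyme of protein mannosylation (4.5-fold, edgeR adjusted p = 0.00012), and in HIVEP3 (4.5-fold, edgeR adjusted p = 0.000183). SPOCK1 was at 10.6 and 14.8 CPM in control, 4.87 and 4.85 after 3 days, 2.36 and 2.34 after 6 days, and 1.58 and 2.52 in MetaICM. Its MetaICM libraries overlapped those of 6 days. PPARGC1A had 29 and 20 counts in control and 11 and 4 in MetaICM, and its call was lost without MetaICM replicate 2.

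Against 6 days, MYO16 was lower in MetaICM by a ratio of 16.9 from pooled counts (exact 95% interval 5.43 to 85.3, edgeR adjusted p = 3.31e-05), and SLC35F1 by 3.93-fold (edgeR adjusted p = 0.00064). Against 3 days, LRMDA, CACNA2D3 and ST6GALNAC3, a sialyltransferase, were lower by 6.92-, 6.42- and 5.74-fold (edgeR adjusted p = 0.000155, 2.96e-05 and 8.76e-07).

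By role, the lists covered 371 of the 426 genes at 1 locus. They were described by counts and medians, to be read beside the shares over all genes given above, and were not tested. Of 63 adhesion and guidance genes, 34 were tested after 3 days, and 14 were lower and 3 higher, with a median log2FC of -0.50. After 6 days 13 of 34 were lower and 5 higher, and in MetaICM 8 of 32 were lower and 0 higher. The members with the highest levels per kb were PTPRM, the receptor phosphatase PTPRK and EDIL3, a matrix ligand of integrins. EDIL3 was at 168 and 155 CPM in control, 79.5 and 69.2 after 3 days, 76.7 and 69.4 after 6 days, and 209 and 200 in MetaICM. It fell 2.18- and 2.22-fold with ICM (edgeR adjusted p = 4.97e-05 and 2.58e-05). PTPRM rose 1.67-fold after 6 days (edgeR adjusted p = 0.000626), and PTPRK was called in no comparison.

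Matrix, glycan and secreted proteins showed the highest share of falls in MetaICM among these lists, with 7 of 15 tested genes lower, 0 higher and a median log2FC of -0.75. After 6 days 9 of 19 were lower and 4 higher. RELN, which encodes the secreted glycoprotein reelin, was at 335 and 295 CPM in control, 130 and 137 after 3 days, 134 and 137 after 6 days, and 391 and 303 in MetaICM. It fell 2.36- and 2.33-fold with ICM (edgeR adjusted p = 1.41e-05 and 1.56e-05), and MetaICM overlapped the control. THSD4, a microfibril-associated protein, fell 2.04- and 1.82-fold (edgeR adjusted p = 5.75e-05 and 0.000157).

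Of transcription and RNA regulators, 17 of 43 were lower and 7 higher after 6 days, and 18 of 43 were lower and 0 higher in MetaICM, with a median log2FC of -0.51 there. RERE, a corepressor, was lower in all 3 comparisons with control, by 1.76-, 2.00- and 1.62-fold (edgeR adjusted p = 0.00249, 0.000237 and 0.00439). RBMS3, an RNA-binding protein, was lower in MetaICM than in control (1.59-fold, edgeR adjusted p = 0.00201), with a log2FC of -0.42 ± 0.11 after 6 days. LPP, a LIM domain protein of focal adhesions and the nucleus, was called in no comparison.

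Cytoskeleton and scaffold genes were lower in 14 of 45 and higher in 4 after 3 days, lower in 13 of 43 and higher in 6 after 6 days, and lower in 9 of 44 and higher in 4 in MetaICM. Channels, transporters and receptors were lower in 7 of 28, 9 of 29 and 9 of 30 and higher in 3, 5 and 2. SLC8A1, the sodium-calcium exchanger, fell 1.79- and 1.54-fold with ICM (edgeR adjusted p = 0.000495 and 0.00103), while CACNA2D1, a calcium channel subunit, and ITPR2, a calcium release channel, were called in no comparison.

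Of signalling genes, 4 were lower and 6 higher of 45 after 3 days, and 5 lower and 5 higher of 46 after 6 days. In MetaICM 10 of 46 were lower and 2 higher. Metabolism, trafficking and repair genes had the fewest calls in proportion, with 3 lower and 4 higher of 44 after 3 days, 3 and 1 after 6 days, and 5 and 3 in MetaICM. Of their leading members, VPS13B and EXOC4 were called in no comparison, and EXOC6B, a subunit of the exocyst, was lower only in MetaICM against 3 days (1.59-fold, edgeR adjusted p = 6.45e-05). The other 55 genes at 1 locus, in no list, had 9 lower and 2 higher of 35 after 3 days, 9 and 2 of 37 after 6 days, and 10 and 1 of 37 in MetaICM.

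Of 24 genes known to lie at common fragile sites, 16 were tested against control. After 3 days 2 were higher and 2 lower, after 6 days 2 were higher and 3 lower, and in MetaICM 2 were higher and 5 lower. Their median log2FC was 0.00, 0.17 and -0.28. PTPRG, the receptor phosphatase with the highest level of the list (16.7 CPM per kb), was called in no comparison. DPYD, an enzyme of pyrimidine breakdown, was 1.59-fold lower in MetaICM than after 6 days (edgeR adjusted p = 2.2e-07), and MAGI2 was called in no comparison.

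**Figure D5:**
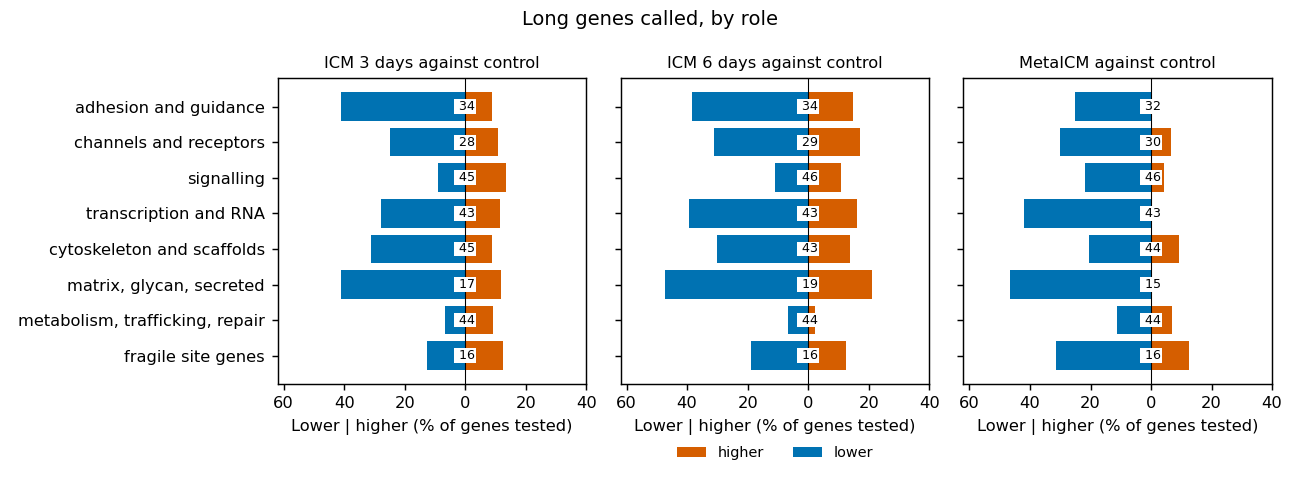
Share of tested long genes called lower (blue, left) and higher (orange, right) against control, in percent (x axis), by role list (y axis); the number at 0 gives the genes tested. In MetaICM no gene of the adhesion, transcription or matrix lists was higher, and the metabolism list had few calls in all 3 comparisons.

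Long genes often hold other genes within their introns. After 6 days, pairs of a 1-locus long gene and a gene lying wholly within it were tested, with 96 hosts. Of 105 pairs on opposite strands, the nested gene was called in 47, and its log2FC had the sign of the host's in 41. Of 59 pairs on the same strand, it was called in 20, and the sign was shared in 15. Of these 59 pairs, 26 had 1 host, SNHG14, and the nested gene was called in 2 of the 26. Pairs of 1 host are not separate cases, and of all genes tested after 6 days 13.3% were higher and 17.2% lower. Counting did not use strand, so unspliced RNA of the host and RNA of a nested gene cannot be told apart where the nested exons lie in a host intron.

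The largest difference between host and nested log2FC among these pairs was in CDH13, which holds MIR8058 on the same strand (log2FC -0.28 for the host and -3.77 for the nested gene after 6 days, edgeR adjusted p = 0.000357 for the latter). NAV2, a neuron navigator protein bound to microtubules, was at a log2FC of -3.15, and its antisense genes NAV2-AS5 and NAV2-AS4 at -0.62 and -1.04 (edgeR adjusted p = 0.017 and 0.00323). THSD4 was at -0.87 and THSD4-AS1 at -3.22 (edgeR adjusted p = 5.3e-06). GPC6, a glypican, was at -1.55 and GPC6-AS1 at -3.64 (edgeR adjusted p = 0.000552).

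Just inside the span limit lay BMPR1B (400495 bases), KCNB2 (401124) and TNIK (401994), and just outside lay HECW2 (399482), TIMM23B-AGAP6 (398877) and DTNA (398554). Their mean levels in control, after 3 days, after 6 days and in MetaICM were 8.97, 7.36, 10.3 and 7.16 CPM for BMPR1B and 40.8, 27.1, 32.6 and 20.8 CPM for TNIK, and KCNB2 had no counts. HECW2 was at 8.59, 14.8, 14.2 and 9.86 CPM, TIMM23B-AGAP6 at 1.80, 1.53, 1.5 and 0.991 CPM, and DTNA at 11.5, 20.5, 24.2 and 10.2 CPM.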

How the data were processed

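Count tables of 8 IMR90 libraries were used. The deposited values were counts of read pairs per gene that the authors made with STAR 2.6.0c (GRCh37, per the labels) and featureCounts 1.6.3, with exons merged by gene symbol, without strand, from primary alignments with both ends mapped and not chimeric (per the file headers). Per the labels, RNA was poly(A)+ selected from total RNA, whereas the series title and methods describe factory RNA-seq of nascent transcripts; which applies to these libraries could not be settled. Intronic counts were not used here.

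Each pair of conditions was fitted on all genes with edgeR 4.0.16 (TMM factors, filterByExpr with at least 10 counts, glmQLFit and glmQLFTest) in R 4.3.3, with Benjamini-Hochberg adjustment over all genes tested. Genes were called at an adjusted p under 0.05 and an absolute log2FC over 0.6. Standard errors are the log2FC over the square root of F. CPM values use TMM factors over all 8 libraries. Depth (12095123 to 23166405 counts) limits genes under about 10 counts. On simulated counts with 200 changed genes, the fit recovered 93% for 3 days, 94.5% for 6 days and 96.5% for MetaICM against control. False calls numbered 8, 4 and 8. The changed genes lay above 1 CPM in control and were changed by log2FC values well over 0.6. Recovery of weaker changes and of genes at lower levels was not simulated.

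Named genes were the called members with the largest log2FC per comparison and direction (8 against control, 4 otherwise) whose libraries did not overlap and whose higher condition had at least 10 counts per library, the 10 highest and 10 longest, the 3 highest of each list, neighbours of the span limit and 5 host and nested pairs. Copies were genes with exons on both strands, with exon lengths of which at least 50% recurred unless 1 GENCODE transcript spanned 200000 bases, or with a transcript under 1% of the span; this definition was set after gene structures were seen. Members, lists and tests were chosen with earlier results of these data known. Alternatives were DESeq2 1.42.0, other scaling factors, filters and thresholds, 1 fit of 8 libraries, a replicate block, thinning and leaving out each library.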

Additional observations from a re-analysis of the deposited data

Results flagged for a closer look

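For 11 long genes, calls against control pointed in opposite directions in ICM and in MetaICM. How many of all genes tested do so was not counted. The direct comparison of the conditions passed too. It uses the same libraries, so its passing was largely set by this choice of genes. The values are the log2FC of that direct comparison, by edgeR's quasi-likelihood test. Between MetaICM and 3 days these were 6.89 for TMEM178B and 1.46 for SAMD12, and -1.36 for MAPK10, -1.92 for DGKI, -2.49 for RARB, -2.45 for NRG1, -2.52 for ST6GALNAC3 and -2.09 for NKAIN2. Between MetaICM and 6 days they were 3.77 for TMEM178B, -1.83 for CREB5, -1.83 for RARB, -2.74 for NRG1, -3.68 for GPC5, -1.59 for NKAIN2 and -1.60 for DOK6. TMEM178B and SAMD12 were higher in MetaICM, and the other nine were lower. TMEM178B had 3 counts in each library of 3 days, so its log2FC there depends on the prior count. Control libraries entered both calls of each gene. Some calls against control lay near the limit of 0.6. The log2FC was 0.64 for MAPK10 after 3 days, and 0.64 for NKAIN2 and 0.61 for DOK6 after 6 days. CREB5, DGKI, MAPK10, NKAIN2 and DOK6 fell outside the rule for named genes and were chosen after their values were seen. What these genes share was not tested.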

How the results depend on the processing

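Counts of long genes called higher and lower stayed within 1.5 times the reported count in every comparison under every alternative except those given here. Between 6 and 3 days, 8 were higher under DESeq2 and 8 at an adjusted p under 0.01, against 13. With each library left out in turn, the genes higher ranged from 17 to 32 after 3 days, from 6 to 14 in MetaICM against control and from 6 to 25 between 6 and 3 days, and the genes lower in MetaICM against control from 46 to 99. A lone library was then assumed to vary like the other condition. The median log2FC after 6 days was -0.16 with all genes that had a count and -0.27 after thinning to 12095123 counts, and ranged from -0.28 to -0.17 with libraries left out. That range was -0.27 to -0.07 after 3 days, -0.40 to -0.31 in MetaICM against control, -0.15 to 0.0913 between 6 and 3 days and -0.26 to -0.09 between MetaICM and 3 days. After 3 days the median was -0.11 with library totals. The rank correlation with span turned to 0.0334 after 3 days and 0.0896 after 6 days within the third of genes with the least exon sequence, and in MetaICM it was -0.119 under DESeq2. No scaling moved the share of lower calls by over 10 percentage points. Replicate numbers share only a number: the paired fit with a replicate block gave 32 higher and 79 lower after 3 days, 36 and 86 after 6 days and 12 and 83 in MetaICM, and changed no call of a named gene. Differences between same-numbered replicates correlated across genes at 0.24 after 3 days, 0.0751 after 6 days and -0.0446 in MetaICM against control, and at 0.124 between 6 and 3 days, 0.0412 between MetaICM and 6 days and -0.144 between MetaICM and 3 days. For the last, a crossed replicate block, chosen after seeing the data, gave 44 higher and 69 lower. Of 899 values of named genes under alternatives, none changed sign and 38 no longer passed, 29 of these with a library left out. What caused these differences was not tested. Genes with under about 10 counts in a library could not be placed with any precision.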

Other observations

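Genes of 200 to 400 kb, chosen by the same exclusions, give the nearest values below the span limit. After 6 days 88 of 661 were higher and 148 lower, with a median log2FC of -0.12, and in MetaICM 32 of 656 were higher and 114 lower, with a median of -0.24. CDKN1A, an inhibitor of cyclin-dependent kinases, was at 95.2 to 137 CPM in control, 645 to 803 after 3 days, 794 to 801 after 6 days and 365 to 391 in MetaICM, and HMGB2, a protein that ICM binds, at 34.4 to 43.5, 4.41 to 4.85, 3.72 to 4.46 and 34.4 to 39.7 CPM.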
